A study of Glycine max with 6 samples.

Results

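The genes described here are the soybean genes that the deposited table assigns to trehalose biosynthesis by Gene Ontology (GO) term. The term is held by 35 of the 45967 genes in the table, and 32 of them had a sum of at least 60 counts over the 6 libraries and were kept. The rule uses annotation and abundance and no difference between the groups, but it was set with earlier results of these data known. MSN leaves came from plants of the cultivar HN95 (genotype tag WT) that stood in saline-alkaline soil and had received a leaf spray of mesoporous silica nanoparticles (MSN) at 20 mg/L (3 libraries). Control leaves came from plants of the same cultivar and genotype in the same saline-alkaline soil, labelled as the control (3 libraries). Leaves were taken 7 days after the spray, and the soil (20 kg in a pot) had received 3 L of a solution of NaCl and Na2CO3 (40 mM of each) with NaHCO3 and Na2SO4 (320 mM of each). The sources used here do not say what the control leaves were sprayed with. Every plant was stressed, so no unstressed level can be set beside these values. The tags of the 3 MSN libraries give the dose as 20, 21 and 22 mg/L, and the libraries form 1 group, since their titles call all of them the treatment.

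Trehalose is a sugar of 2 joined glucose units. Trehalose-6-phosphate synthase joins UDP-glucose to glucose 6-phosphate, trehalose-6-phosphate phosphatase then removes the phosphate, and trehalase splits the free sugar. Most plants hold little trehalose, and the intermediate trehalose 6-phosphate is known from Arabidopsis as a signal that follows the sucrose level and lowers the activity of the energy-sensing kinase SnRK1. In Arabidopsis many proteins of the synthase family carry a synthase-like and a phosphatase-like domain without a shown enzyme activity, so membership of the family does not by itself mean synthesis. The series title places the study in photosynthetic carbon metabolism under salt and alkali, to which the pathway is tied through sucrose.

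The annotation splits the 32 genes into a synthase type and a phosphatase type. The synthase type has 17 genes, each with enzyme numbers for synthase and phosphatase. Only 4 of these 17 also carry the GO term for synthase activity, and those 4 share a term for sugar-mediated signalling. The phosphatase type has 14 genes with the phosphatase enzyme number alone. The last gene, GLYMA_02G086200, has no enzyme number and was kept apart. The phosphatase activity term is held by all 32 genes, so it separates nothing. A term for trehalose metabolism in response to stress is held by 16 of the 17 synthase-type genes and by 0 of the 14 phosphatase-type genes. Descriptions in the table name 0 of the members beyond "hypothetical protein", so they are called by their identifiers. They lie on 17 chromosomes, with 5 on chromosome 6, and no pair on the same chromosome starts closer than 517123 bp. Positions are those of the table, and the sources used here do not name its genome build.

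Library totals ran from 63981150 to 67923813 counts. The correlation of log2 profiles, taken across genes, which are not independent replicates, was 0.982 to 0.985 for libraries of the same group and 0.925 to 0.928 for libraries of different groups. The kept members ranged from 153 counts over all libraries (GLYMA_13G088300) to 37610 (GLYMA_13G264600). Just outside the sum rule lay GLYMA_05G036100 with 41 counts, a synthase-type gene with 8, 3 and 0 counts in MSN libraries and 17, 0 and 13 in control libraries. GLYMA_01G092600 and GLYMA_16G025600 had 9 counts each, all of them in MSN libraries. Annotation lists for cell types were counted against a background of 29.6% higher and 29.7% lower among all genes tested with edgeR. The list called mesophyll chloroplast holds genes with GO terms for photosynthetic light harvesting, a function and not a cell type. Of these, 32 of 39 were higher in MSN and 2 lower. Their summed levels were 9138 to 9585 CPM (counts scaled to the TMM-adjusted library total) in MSN and 6535 to 6851 CPM in control. Phloem genes had 21 of 36 higher and 1 lower, at 296 to 321 CPM in MSN and 212 to 221 CPM in control. Guard cell genes had 4 of 16 higher and 1 lower, at 63.7 to 66.4 CPM in MSN and 69.7 to 78.1 CPM in control. Xylem genes had 1 of 8 higher and 1 lower, epidermis and trichome genes 3 of 7 higher and 1 lower, and root genes 12 of 48 higher and 12 lower. Some genes stand in more than 1 list. GLYMA_20G218600, the phloem gene of highest level among those that passed, is also in the root list, and GLYMA_08G355400 is in the phloem and xylem lists. No gene of the whole table was at 0 in all 6 libraries, so this holds for the 6 lists by construction. The part of cell type shares in the trehalose results was not tested. In bulk leaf RNA, fewer cells of a type and less RNA per cell cannot be told apart.

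Trehalose synthesis genes were more often lower than higher in MSN leaves. Of the 32 members, 12 were lower and 4 were higher in MSN, and 16 did not pass (edgeR quasi-likelihood test, adjusted over all 39203 genes tested, threshold 0.05). Over all genes tested, 29.7% were lower and 29.6% were higher, 59.3% in all. Among the members the lower share, 37.5%, was near that background, and 12.5% were higher. Members of a family may share reads with close copies, and the sources used here do not say how such reads were counted. The median log2 fold change of the members was -0.08, against 0.01 over all genes. The median size of change was 0.39 on the log2 scale in the members and in all genes tested alike. The ranges of the groups did not overlap in 19 of the 32 members (59.4%), against 65.0% of all tested genes. A rise of at least 1 on the log2 scale was called in 2 members (9.27% of all genes) and a fall of at least 1 in 5 (7.01% of all genes).

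**Figure D1:**
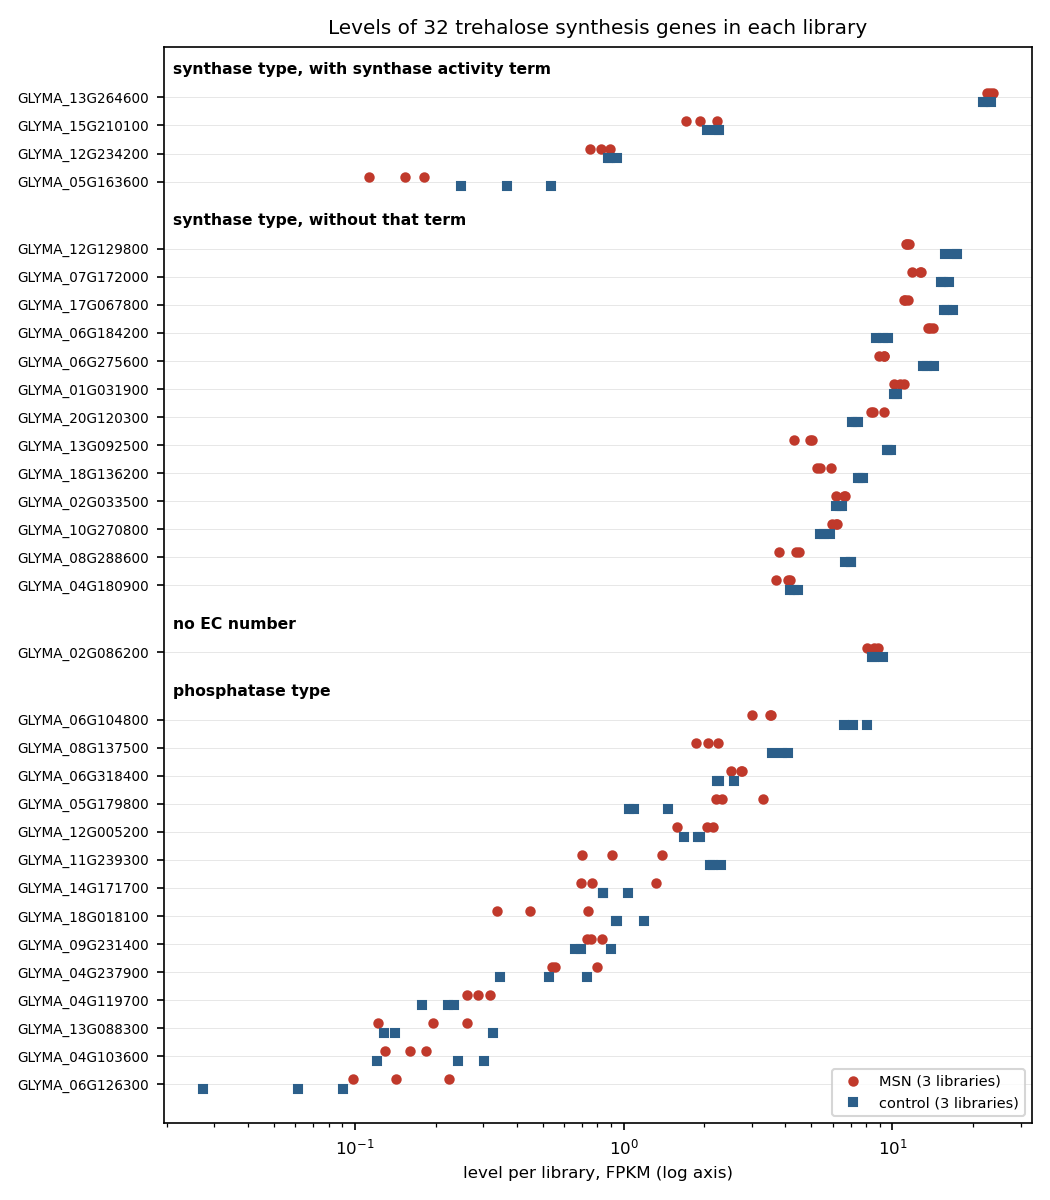
Each row is a member and each point a library, with the level in FPKM on a log axis, MSN as red circles and control as blue squares. Synthase-type genes other than GLYMA_15G210100, GLYMA_12G234200 and GLYMA_05G163600 lie above 3 FPKM in every library, and most phosphatase-type genes lie lower.

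The highest level of the set belonged to GLYMA_13G264600, which carries the synthase activity term and lies on the minus strand of chromosome 13 at 36759779 to 36772020. It had 23.6, 22.5 and 23.0 FPKM (fragments scaled to gene length and sequencing depth) in MSN leaves, against 23.3, 21.8 and 22.1 FPKM in control leaves. The groups overlapped. Its log2 fold change was 0.03, with an interval of 2 standard errors each way of -0.05 to 0.12 (edgeR adjusted p = 0.499).

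The other 3 genes with the synthase activity term had lower levels per length. For GLYMA_15G210100, which spans 34813 bp in the table, the gap was smaller without the scaling to length, at a mean over the 6 libraries of 55.6 CPM against 95.0 CPM for GLYMA_13G264600. GLYMA_15G210100 (chromosome 15, 32175249 to 32210061, plus strand) had 2.23, 1.92 and 1.70 FPKM in MSN leaves, against 2.26, 2.22 and 2.04 FPKM in control leaves. The groups overlapped, and its log2 fold change of -0.16 (SE 0.07, edgeR adjusted p = 0.0555) did not pass. In edgeR it passed without MSN replicate 1 (-0.27, adjusted p = 0.00151), without control replicate 3 (-0.20, adjusted p = 0.0380), with size factors of the DESeq2 type (adjusted p = 0.0494), with counts divided by 4 (adjusted p = 0.0390) and with the replicate block (adjusted p = 0.0117). GLYMA_12G234200 (chromosome 12, 39354606 to 39377365, plus strand) had 0.751, 0.889 and 0.822 FPKM in MSN leaves, against 0.889, 0.877 and 0.943 FPKM in control leaves. Its groups overlapped, and its log2 fold change of -0.14 (SE 0.09, edgeR adjusted p = 0.171) did not pass. Another gene lies wholly within it on the same strand.

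GLYMA_05G163600 was the member of these 4 that fell. It lies on the plus strand of chromosome 5 at 35471465 to 35481277 and had 0.154, 0.113 and 0.180 FPKM in MSN leaves, against 0.369, 0.249 and 0.539 FPKM in control leaves. All 3 MSN values lay below all 3 control values, though control replicates differed widely. The log2 fold change was -1.36 (SE 0.32, edgeR adjusted p = 0.0014). At this level it added little to the class: the summed FPKM of the 4 genes was 25.9 ± 0.695 in MSN leaves and 25.9 ± 0.845 in control leaves (SD, n = 3 each). Without the scaling to length, the sums were 162 ± 6.95 CPM in MSN leaves and 168 ± 5.48 CPM in control leaves, a difference of -3.7%. The ranges of these CPM sums overlapped.

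The 13 synthase-type genes without the synthase activity term held the largest part of the difference in summed level. Lower levels were called for 7 of them (53.8%, against 29.7% of all genes tested), higher levels for 2 (15.4%, against 29.6%), and the other 4 did not pass. Their median log2 fold change was -0.33. Their summed level was 108 ± 1.67 FPKM in MSN leaves and 129 ± 1.91 FPKM in control leaves (SD, n = 3 each), and the range of each group lay outside that of the other. These genes made up 67.7% of the summed FPKM of all members in MSN leaves and 69.3% in control leaves.

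The 3 most abundant falling genes of this group were close to each other in level. GLYMA_12G129800 (chromosome 12, 14477192 to 14482275, minus strand) had 11.3, 11.5 and 11.3 FPKM in MSN leaves, against 17.4, 15.7 and 17.1 FPKM in control leaves. GLYMA_17G067800 (chromosome 17, 5288105 to 5291690, minus strand) had 11.2, 11.4 and 11.1 FPKM in MSN leaves, against 15.9, 15.5 and 16.9 FPKM in control leaves. GLYMA_07G172000 (chromosome 7, 29897101 to 29901738, minus strand) had 12.7, 11.9 and 12.7 FPKM in MSN leaves, against 15.4, 15.2 and 16.2 FPKM in control leaves. In each of the 3 genes the groups stood apart, with the MSN libraries close together. GLYMA_12G129800 fell by 0.56 on the log2 scale (edgeR adjusted p = 1.14e-08), GLYMA_17G067800 by 0.52 (edgeR adjusted p = 2.99e-08) and GLYMA_07G172000 by 0.33 (edgeR adjusted p = 8.48e-06), each with an SE of 0.05.

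GLYMA_13G092500, GLYMA_08G288600 and GLYMA_06G275600 had the largest falls of these 13 genes. GLYMA_13G092500 (chromosome 13, 20719315 to 20722074, plus strand) had 4.93, 5.04 and 4.31 FPKM in MSN leaves, against 9.60, 9.88 and 9.52 FPKM in control leaves. The table also assigns it terms for the spliceosome, and it is the synthase-type member without the stress term. Its log2 fold change was -1.03 (SE 0.07, edgeR adjusted p = 2.99e-10), and its place in the order of levels was 13 in MSN leaves and 7 in control leaves. GLYMA_08G288600 (chromosome 8, 40104690 to 40110059, plus strand) had 4.51, 4.38 and 3.79 FPKM in MSN leaves, against 7.02, 7.03 and 6.66 FPKM in control leaves. GLYMA_06G275600 (chromosome 6, 46653083 to 46658187, plus strand) had 8.93, 9.31 and 9.31 FPKM in MSN leaves, against 13.5, 13 and 14.3 FPKM in control leaves. The groups of both genes stood apart, with log2 fold changes of -0.71 (SE 0.06, edgeR adjusted p = 1.46e-08) and -0.57 (SE 0.05, edgeR adjusted p = 1.72e-08). The remaining gene that fell, GLYMA_18G136200, averaged 5.51 ± 0.351 FPKM in MSN leaves and 7.62 ± 0.179 FPKM in control leaves (SD, n = 3 each).

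GLYMA_06G184200 and GLYMA_20G120300 rose. GLYMA_06G184200 (chromosome 6, 15936592 to 15943930, plus strand) had 14.1, 13.8 and 13.6 FPKM in MSN leaves, against 8.70, 9.66 and 9.25 FPKM in control leaves. Its log2 fold change was 0.58 (SE 0.04, edgeR adjusted p = 1.62e-09), and it stood at place 2 in the order of levels in MSN leaves and at place 8 in control leaves. GLYMA_20G120300 (chromosome 20, 36306759 to 36311703, plus strand) had 9.28, 8.32 and 8.44 FPKM in MSN leaves, against 7.45, 7.30 and 7.07 FPKM in control leaves. MSN replicate 1 was the highest of these, and the groups did not overlap (log2 fold change 0.25, SE 0.05, edgeR adjusted p = 0.000612). The 4 genes of this group that did not pass were GLYMA_01G031900, GLYMA_02G033500, GLYMA_04G180900 and GLYMA_10G270800, with log2 fold changes from -0.12 to 0.12. In edgeR, GLYMA_10G270800 passed as higher under upper-quartile scaling (0.17, adjusted p = 0.0170) and without control replicate 1 (0.16, adjusted p = 0.0481).

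**Figure D2:**
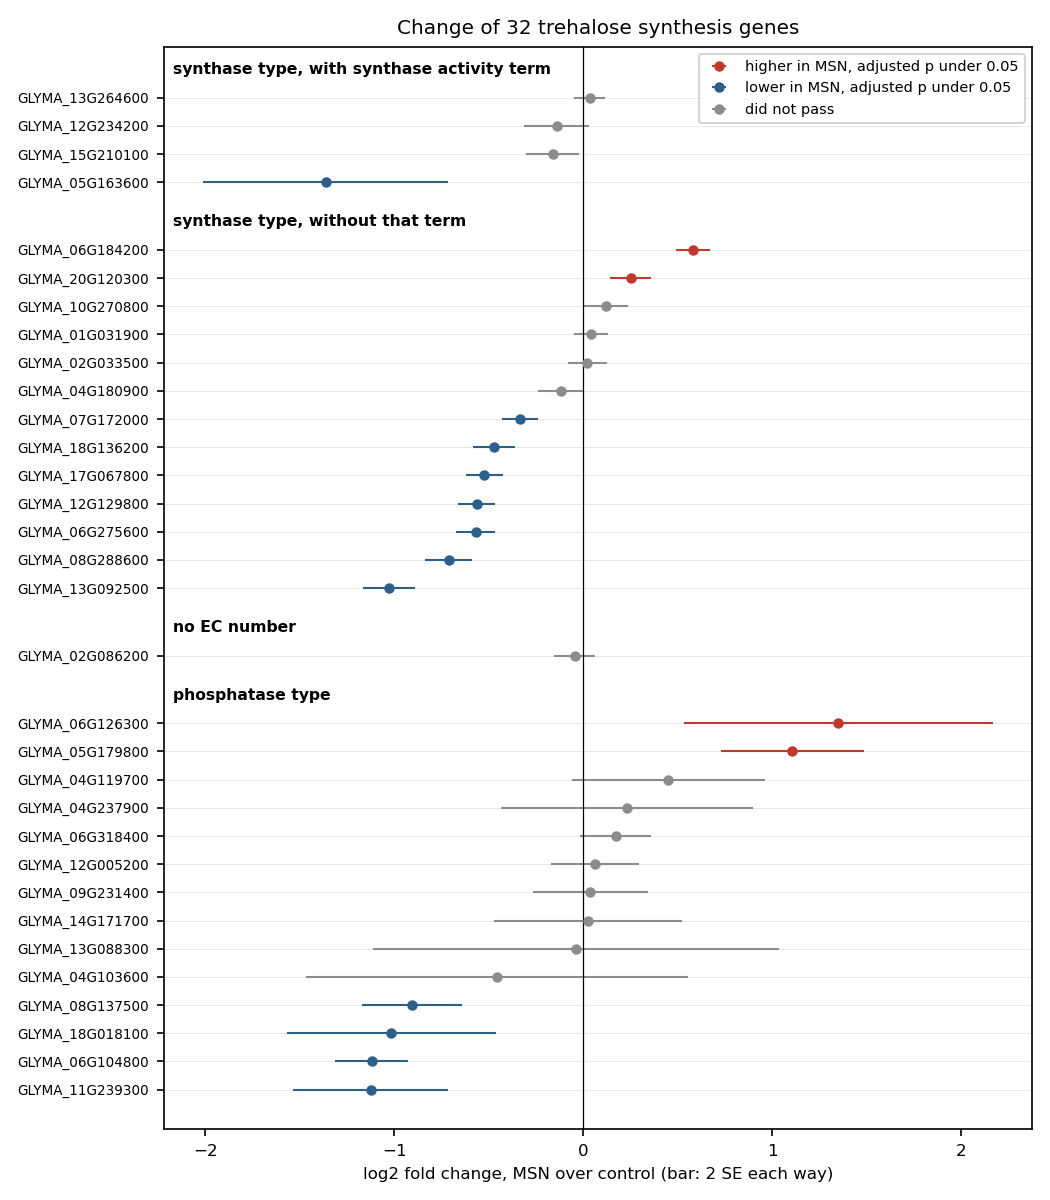
Log2 fold change of each member, MSN over control, with bars of 2 standard errors each way; red passed as higher, blue as lower and grey did not pass. Falls outnumber rises among synthase-type genes without the synthase activity term (7 against 2), and phosphatase-type genes have wider bars.

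Within the synthase type, the 8 genes that fell summed to 58.8 FPKM in MSN leaves and 86.6 FPKM in control leaves. The 2 that rose summed to 22.5 FPKM in MSN leaves and 16.5 FPKM in control leaves, and the 7 that did not pass to 53.0 FPKM in MSN leaves and 52.0 FPKM in control leaves. These sums are sorted by the same values and describe sizes only. Over all 17 genes the summed level was 134 ± 2.28 FPKM in MSN leaves and 155 ± 2.31 FPKM in control leaves (SD, n = 3 each), a difference of -13.4%, and -10.2% in CPM.

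GLYMA_02G086200, the gene without an enzyme number, had 8.84, 8.53 and 8.04 FPKM in MSN leaves, against 8.42, 8.51 and 9.22 FPKM in control leaves. It lies on chromosome 2 at 7512613 to 7516994 on the minus strand. Its groups overlapped (log2 fold change -0.05, SE 0.05, edgeR adjusted p = 0.493). Its GO terms for the cytoplasm and for trehalose metabolism in stress are those of the synthase type, and its mean over the 6 libraries, 8.59 FPKM, lay above that of every phosphatase-type gene.

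Phosphatase-type genes mostly had lower FPKM than synthase-type genes. Of 14 genes, 4 were lower (28.6%, against 29.7% of all genes tested), 2 were higher (14.3%, against 29.6%) and 8 did not pass. Only GLYMA_06G104800 averaged at least 5 FPKM over the 6 libraries, and 8 of the 14 averaged under 1 FPKM. Each of the 6 genes that passed had a log2 fold change of at least 0.90 in size, which among synthase-type genes held for GLYMA_05G163600 and GLYMA_13G092500. Standard errors ran from 0.09 to 0.54 in the phosphatase type and from 0.04 to 0.32 in the synthase type. A larger error needs a larger change to pass, so this contrast depends in part on the threshold.

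The genes that fell included the 2 phosphatase-type genes of highest level in control leaves. GLYMA_06G104800 (chromosome 6, 8372903 to 8376078, plus strand) had 3.53, 3.02 and 3.50 FPKM in MSN leaves, against 7.12, 8.06 and 6.62 FPKM in control leaves. GLYMA_08G137500 (chromosome 8, 10520832 to 10523782, minus strand) had 2.25, 1.87 and 2.05 FPKM in MSN leaves, against 3.89, 4.08 and 3.58 FPKM in control leaves. The groups of both genes stood well apart. Their log2 fold changes were -1.12 (SE 0.10, edgeR adjusted p = 1.15e-08) and -0.90 (SE 0.13, edgeR adjusted p = 9.86e-06). GLYMA_11G239300 (chromosome 11, 33372414 to 33375549, plus strand) had 1.40, 0.903 and 0.70 FPKM in MSN leaves, against 2.30, 2.15 and 2.09 FPKM in control leaves. GLYMA_18G018100 (chromosome 18, 1312068 to 1315259, minus strand) had 0.448, 0.338 and 0.736 FPKM in MSN leaves, against 1.19, 0.945 and 0.935 FPKM in control leaves. In these 2 genes the MSN replicates differed widely, yet all lay below the control replicates. The log2 fold changes were -1.13 (SE 0.21, edgeR adjusted p = 0.000116) and -1.02 (SE 0.28, edgeR adjusted p = 0.00417).

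The rising phosphatase-type genes were GLYMA_05G179800 and GLYMA_06G126300. GLYMA_05G179800 (chromosome 5, 36767542 to 36770445, minus strand) had 3.30, 2.32 and 2.20 FPKM in MSN leaves, against 1.09, 1.04 and 1.46 FPKM in control leaves. MSN replicate 1 stood above the other MSN libraries, and the groups did not overlap (log2 fold change 1.11, SE 0.19, edgeR adjusted p = 5.93e-05). The level of GLYMA_05G179800 stayed below that of GLYMA_06G104800, the phosphatase-type gene of highest level in each group, at 3.35 ± 0.287 FPKM in MSN leaves and 7.3 ± 0.734 FPKM in control leaves (SD, n = 3 each). GLYMA_06G126300 (chromosome 6, 10331312 to 10341252, minus strand) had 0.224, 0.0982 and 0.142 FPKM in MSN leaves, against 0.0617, 0.0903 and 0.0273 FPKM in control leaves. Its lowest MSN value was just above its highest control value. Its log2 fold change of 1.35 (SE 0.41, edgeR adjusted p = 0.00823) did not hold without MSN replicate 1 (0.99, adjusted p = 0.0853), nor by limma on log2 FPKM with a pseudocount of 1 (0.12, adjusted p = 0.118) or 0.1 (0.66, adjusted p = 0.0751). A pseudocount of 1 lies above the FPKM of GLYMA_06G126300 in every library and shrinks its log2 fold change.

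The 8 phosphatase-type genes that did not pass had log2 fold changes from -0.46 to 0.45. GLYMA_06G318400, among the 4 of highest level, had 2.73, 2.51 and 2.75 FPKM in MSN leaves, against 2.58, 2.26 and 2.23 FPKM in control leaves (edgeR adjusted p = 0.124). The groups overlapped. Over the 8 genes, intervals of 2 standard errors reached from -1.47 to 1.04, where those of the 7 synthase-type genes that did not pass reached from -0.31 to 0.24. The median coefficient of variation between replicates was 18.8% in MSN and 15.4% in control for phosphatase-type genes, and 4.15% in MSN and 4.07% in control for synthase-type genes. Standard errors ran from 0.09 to 0.54 among the 8 phosphatase-type genes, so the size of change that could be called differed from gene to gene.

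**Figure D3:**
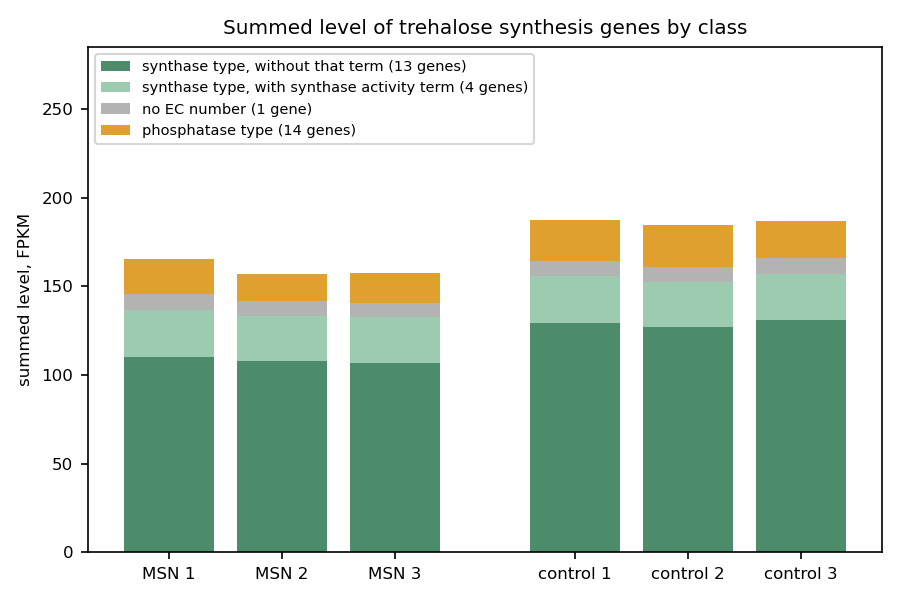
Summed FPKM of the 32 members in each library, stacked by class, MSN libraries left of control libraries. The totals run from 157 to 165 FPKM in MSN and from 185 to 187 FPKM in control, and the largest part of the difference lies in the 13 synthase-type genes without the synthase activity term.

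The summed levels of both types were lower in MSN libraries, with ranges that did not overlap. The phosphatase type summed to 19.6, 15.2 and 16.9 FPKM in MSN leaves, against 23.0, 23.7 and 21.2 FPKM in control leaves, a difference in means of -23.7% in FPKM and -16.3% in CPM. Most of that difference lay in GLYMA_06G104800. This gene had 3.53, 3.02 and 3.50 FPKM in MSN leaves, against 7.12, 8.06 and 6.62 FPKM in control leaves. The phosphatase-type sum therefore does not show a fall across the class, in which 8 of 14 genes did not pass. The synthase type summed to 137, 133 and 133 FPKM in MSN leaves, against 156, 152 and 157 FPKM in control leaves. Expressed as a percentage of the synthase-type sum, the phosphatase-type sum was 14.3, 11.4 and 12.8% in MSN libraries and 14.7, 15.5 and 13.5% in control libraries. These ranges overlapped, so the balance between the types did not separate the groups. No test was made on these sums, since the members were chosen as a set. The median log2 fold change of the synthase type was -0.16, and -0.27 without MSN replicate 1. The median of the phosphatase type was 0.03 with all libraries. It was 0.19 without MSN replicate 2, 0.02 without MSN replicate 3 and 0.10 without control replicate 1, and turned to -0.03 without MSN replicate 1 and to -0.035 without control replicate 3.

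Genes of neighbouring steps were counted from lists defined by enzyme number or GO term. The lists are short, and their counts stand against 29.6% higher and 29.7% lower among all genes tested. Trehalase, which splits trehalose, has 1 gene in the table, GLYMA_05G219800. It had 5.68, 6.15 and 6.62 FPKM in MSN leaves, against 10.6, 8.44 and 9.08 FPKM in control leaves. The groups stood apart, and the gene fell (log2 fold change -0.61, SE 0.09, edgeR adjusted p = 5.37e-06). UDP-glucose pyrophosphorylase makes 1 substrate of the synthase, and 2 of its 6 tested genes were higher and 1 was lower. The 2 became 1 without MSN replicate 1, MSN replicate 3, control replicate 2 or control replicate 3. GLYMA_18G025500 averaged 102 ± 3.55 CPM in MSN leaves and 67.9 ± 2.54 CPM in control leaves (SD, n = 3 each), a rise of 0.59 on the log2 scale. Hexokinase makes the other substrate, and 3 of its 11 tested genes were higher and 3 lower. GLYMA_08G033300 fell to 45.3 ± 1.5 CPM in MSN leaves, against 54.1 ± 1.06 CPM in control leaves. The summed level of the hexokinase list overlapped between the groups, at 304.0 to 320.5 CPM in MSN libraries and 285.5 to 312.8 CPM in control libraries.

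Lists of sucrose and starch enzymes were counted against the same shares of all genes tested, 29.6% higher and 29.7% lower. The phloem and light-harvesting (mesophyll chloroplast) lists described above were higher in the same MSN libraries, and their part in these counts was not tested. For sucrose synthase, 10 of 18 genes were higher and 4 lower. That list contains the 5 genes of the sucrose-phosphate synthase list, of which 4 were higher and 1 lower. GLYMA_14G029100, which stands in both lists, averaged 158 ± 7.52 CPM in MSN leaves and 68.7 ± 3.84 CPM in control leaves (log2 fold change 1.20, SE 0.05, edgeR adjusted p = 1.37e-13). For sucrose-phosphate phosphatase, GLYMA_10G086600 was higher (61.7 ± 2.33 CPM in MSN leaves and 42.9 ± 1.84 CPM in control leaves) and the other of the 2 genes did not pass. Invertase, which cleaves sucrose, had 5 of 19 genes higher and 10 lower. The 5 became 3 without MSN replicate 2 and 2 without control replicate 3. The list's summed level was 553 to 566 CPM in MSN libraries and 929 to 976 CPM in control libraries. GLYMA_17G037400 fell to 153 ± 2.66 CPM in MSN leaves, against 265 ± 2.30 CPM in control leaves. ADP-glucose pyrophosphorylase, which makes the glucose donor for starch, had 5 of 12 genes higher and 5 lower, with 2 higher without MSN replicate 2 or control replicate 3 and 3 without control replicate 2. Its gene GLYMA_17G015600 rose to 193 ± 5.85 CPM in MSN leaves, against 162 ± 3.84 CPM in control leaves (edgeR adjusted p = 1.04e-05). The summed level of the ADP-glucose pyrophosphorylase list went the other way, at 626 to 654 CPM in MSN libraries and 707 to 751 CPM in control libraries.

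The SNF1-type kinase complex, known in plants as SnRK1, had 0 of 14 genes higher and 7 lower. At an unadjusted p under 0.05 the same edgeR test had 1 gene higher, GLYMA_10G153700 (log2 fold change 0.80, named after its values were seen). DESeq2, edgeR on counts divided by 4, and limma on log2 FPKM with a pseudocount of 1 or 0.1 each called 1 gene higher. With a minimum mean FPKM limma called 0, and edgeR with upper-quartile scaling or without control replicate 1 called 2. GLYMA_18G240900, the gene of highest level among those that passed, fell to 25.7 ± 0.918 CPM in MSN leaves, against 30.8 ± 0.969 CPM in control leaves (log2 fold change -0.26, SE 0.06, edgeR adjusted p = 0.000635). The summed level of the complex was 292 to 296 CPM in MSN libraries and 329 to 340 CPM in control libraries.

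**Figure D4:**
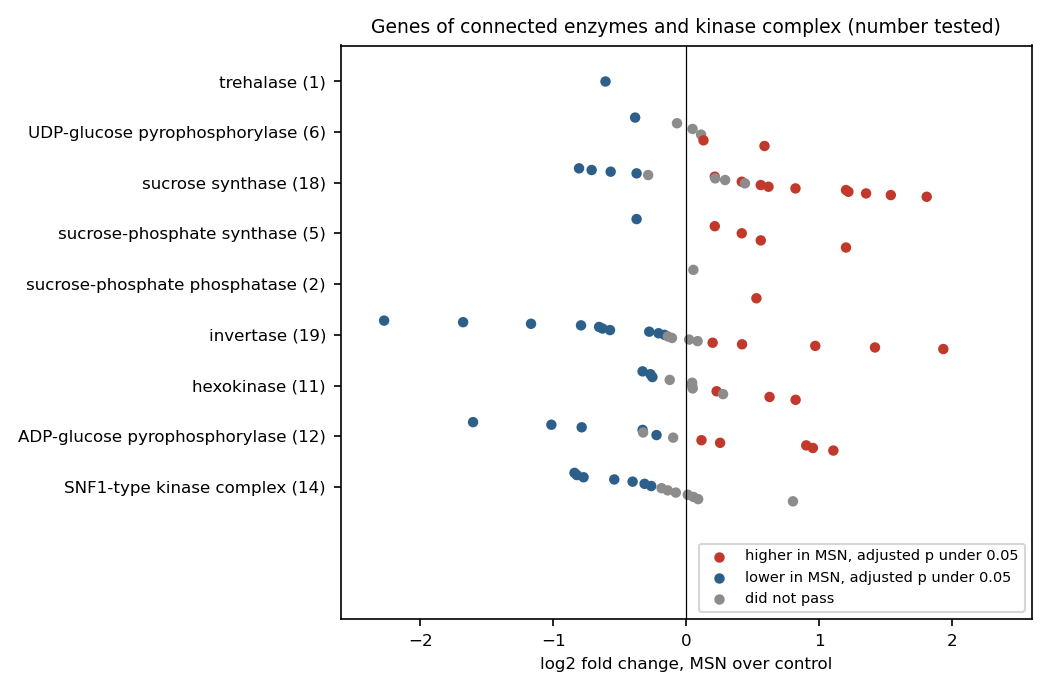
Each point is a tested gene of a list, placed by its log2 fold change, MSN over control; red passed as higher, blue as lower and grey did not pass, and numbers of tested genes stand in brackets. Sucrose synthase genes lie mostly right of 0 (10 higher, 4 lower), but 5 of them are also the sucrose-phosphate synthase genes (4 higher, 1 lower). For the SNF1-type kinase complex, 7 genes passed as lower and 0 as higher.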

How the data were processed

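RNA was sequenced from 3 MSN and 3 control leaf samples. Per the labels' protocols, total RNA was enriched for poly(A) RNA with oligo(dT). The authors deposited 1 table with counts and FPKM per gene, and the submitters' processing notes name DESeq2 1.34.0 and R 4.1.2 without a role. The sources used here do not give the aligner, counter, strand setting, build or annotation. Among deposited counts of 1 to 12, the value 4 takes 17.7 to 19.0% of entries, so whether counts are independent reads is unknown.

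Genes were tested with edgeR 4.0.16 (TMM, filterByExpr, quasi-likelihood, Benjamini-Hochberg adjustment over 39203 genes) in R 4.3.3, with standard errors derived from the F statistic. The step was tested on simulated counts with a small share of changed genes, balanced in direction and above a minimum level. That setting does not cover genes of low level, nor data in which 59.3% of genes pass. CPM is scaled by TMM. Alternatives used DESeq2 1.42.0, with a local dispersion fit, and limma 3.58.1 on log2(FPKM + pseudocount). Named were, in each class, the 4 members of highest mean FPKM, the 4 largest rises and falls past the threshold, and the unclassed member, and in each other list the gene past the threshold with the highest mean CPM. GLYMA_12G234200, GLYMA_15G210100, GLYMA_18G136200 and other members outside this rule were named after their values were seen. The members and lists were chosen with earlier results of these data known. The labels call replicates biological but do not say whether plants or pots were separate, so p-values measure the spread between these samples. None of the identifiers matched the RefSeq table used here (0 of 32 members), so no sequence is shown.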

Additional observations from a re-analysis of the deposited data

How the results depend on the processing

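Across the alternatives to the main test (RLE or upper-quartile scaling, no filter, a stricter minimum sum, DESeq2, replicate block, counts divided by 4, limma, each library left out), 10 to 13 members were lower and 3 to 5 higher. With each library left out in turn the counts ran from 12 to 13 lower and from 3 to 5 higher. Of 468 pairs of member and setting, 443 kept direction and side of the threshold. The cause of the other values was not tested. The replicate block gave 4 higher and 13 lower. Deviations of same-numbered libraries from their group means were not correlated across genes (-0.00258 to 0.0104). With 3 libraries per group, this cannot tell whether same-numbered libraries were paired in the experiment.

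The synthase-type median was -0.12 under upper-quartile scaling and -0.11 by limma on log2(FPKM + 1), with or without a mean of at least 1 FPKM, and ran from -0.27 to -0.15 over the sets without 1 library. Over all genes tested, the median log2 fold change was 0.05 under upper-quartile scaling, against 0.01 in the main test. The median size of change over all genes was 0.24 by limma on log2(FPKM + 1), against 0.39 in the main test. The phosphatase-type median was -0.31 by limma with that minimum, which keeps 6 genes, and ran from -0.035 to 0.19 over those sets. Members that did not pass changed sign as follows. GLYMA_13G088300 was 0.008 under upper-quartile scaling, 0.019 with the block, 0.004 by limma with a pseudocount of 0.1, 0.19 without MSN replicate 2 and 0.51 without control replicate 1. GLYMA_14G171700 was -0.016 with the block, -0.010 by that limma fit, -0.31 without MSN replicate 1, -0.02 without control replicate 1 and -0.03 without control replicate 3. GLYMA_09G231400 was -0.02 without MSN replicate 1 or control replicate 2 and -0.046 without control replicate 3. GLYMA_02G033500 was -0.009 without MSN replicate 3 and up to 0.065 under upper-quartile scaling. GLYMA_12G005200 was -0.034 without MSN replicate 3 and up to 0.183 without MSN replicate 2. Standard errors reached 0.54 on the log2 scale in the phosphatase type, against 0.32 in the synthase type. The sums over all 6 libraries ran from 153 to 5008 counts in the phosphatase type and from 440 to 37610 counts in the synthase type, and the part of depth in the errors was not tested.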

Other observations

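Beside 3 phosphatase-type genes, the neighbouring gene on the same strand belongs to the invertase list, an arrangement singled out after its values were seen. GLYMA_06G318500 lies 3043 bp from GLYMA_06G318400 and had 0.240, 0.264 and 0.344 FPKM in MSN leaves, against 0.107, 0.159 and 0.0455 FPKM in control leaves. All MSN values lay above all control values (log2 fold change 1.42, SE 0.38, edgeR adjusted p = 0.00392). GLYMA_09G231500 lies 1502 bp from GLYMA_09G231400 and had 2.4, 2.63 and 1.84 FPKM in MSN leaves, against 1.77, 1.70 and 1.65 FPKM in control leaves. It also rose (log2 fold change 0.42, SE 0.14, edgeR adjusted p = 0.0173). GLYMA_12G005100 lies 1929 bp from GLYMA_12G005200 and had 1.44, 1.20 and 1.02 FPKM in MSN leaves, against 1.48, 2.15 and 1.81 FPKM in control leaves. It fell (log2 fold change -0.57, SE 0.16, edgeR adjusted p = 0.0046), while the 3 phosphatase-type genes beside these neighbours had log2 fold changes of 0.17, 0.04 and 0.06 and did not pass.

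Some connected genes changed more than any synthase-type member, and were also chosen after their values were seen. GLYMA_17G138500, of the invertase list, fell to 34.3 ± 2.64 CPM in MSN leaves, against 166 ± 10.0 CPM in control leaves (SD, n = 3 each). GLYMA_06G011700, of the ADP-glucose pyrophosphorylase list, fell to 76.2 ± 0.808 CPM in MSN leaves, against 232 ± 7.34 CPM in control leaves (SD, n = 3 each).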
